A study of Mus musculus with 16 samples.

Results

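Mouse muscle stem cells (MuSCs) were sorted from limb muscle and profiled by droplet-based single cell RNA-seq, and the authors kept 21555 of the 22699 deposited cells in a cell table. The cells described here are 104 of the 1144 cells that the table leaves out. They carry no more than 10% mitochondrial transcripts, express no more than 5000 genes, and hold at least 1 unique molecular identifier (UMI, 1 captured transcript) in 3 or more of Pdgfra, Dcn, Lum, Col1a1, Col1a2 and Gsn, which mark fibro-adipogenic progenitors (FAPs). Of the other left-out cells, 636 were under both limits without meeting the marker rule and 404 were over a limit.

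Young mice were 3 months old and aged mice 20 months old, with 2 mice per age. All were C57Bl/6J males that carried H2B-GFP and rtTA alleles, and all received doxycycline from embryonic day 10.5 to 16.5, so that cells which divided little kept the histone label (label-retaining cells, LRCs) and the others diluted it (nonLRCs). Cells were sequenced at 0 h (quiescent) or after 18 h of culture in medium with horse serum on an extracellular matrix (activated). The sort from muscle took cells negative for CD31, CD45 and Sca1 and positive for VCAM and α7-integrin. After culture, the activated cells alone were dissociated and sorted again, with propidium iodide, to discard dead cells. There were 16 libraries, 2 for each of the 8 conditions, named a and b below. These letters name no mouse, since the barcodes do not give it. LRC and nonLRC libraries of an age share mice, as do its quiescent and activated libraries. The p-values therefore measure the spread between libraries that are not fully independent.

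FAPs are mesenchymal cells of the muscle interstitium. They lie outside the basal lamina of the fibre, carry the receptor PDGFRα and the surface protein Sca1 (encoded by Ly6a), secrete collagens and proteoglycans, and can form adipocytes or matrix-producing fibroblasts when muscle is damaged. Other matrix-producing cells of muscle share many of their genes, among them tenocytes of the tendon, the sheath cells and Schwann cells of nerves, and the pericytes and smooth muscle cells around vessels (mural cells).

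Of the 104 cells, 101 were in the 8 quiescent libraries and 3 in the 8 activated libraries. The quiescent libraries held 35 and 4 of them in young LRCs, 15 and 7 in young nonLRCs, 7 and 11 in aged LRCs, and 19 and 3 in aged nonLRCs, in the order a and b. The 3 activated cells came from young LRCs, young nonLRCs and aged nonLRCs. The cells of the quiescent libraries had a median of 3297 UMIs (878 to 14432) and 1388 genes, against 3072 UMIs and 1092 genes in quiescent cells of the table and 1980 UMIs and 923 genes in the other left-out quiescent cells. The 101 cells held 402049 UMIs in all. Libraries can share a cell barcode, and 2 of the 104 barcodes (1.92%) also occurred in another library, against 3.51% of all barcodes.

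The 6 markers chose the cells, so their levels are a description. Dcn, which encodes the proteoglycan decorin, was detected in 91 of the 104 cells (87.5%) against 3.63% of quiescent cells of the table and 3.62% of the other left-out cells. Col1a2 and Col1a1, the chains of type I collagen, were detected in 82.7% and 76.0% of the cells against 0.804% and 1.14% of quiescent table cells. Gsn, which encodes the actin-severing protein gelsolin, was detected in 99.0% of the cells but also in 67.1% of quiescent table cells, so its detection alone does not set the cells apart. Lum, a proteoglycan of collagen fibrils, was found in 39.4% of the cells and Pdgfra in 26.0%, against 0.351% and 0.00924% of quiescent table cells. When every cell with enough UMIs was thinned to 1000 UMIs, Pdgfra was left in 8.82%, Lum in 25.5%, Col1a1 in 43.1%, Col1a2 in 55.9%, Dcn in 83.3% and Gsn in 94.1% of 102 cells, while the quiescent table cells gave 0.334% for Col1a1, 0.286% for Col1a2, 1.57% for Dcn and 37.5% for Gsn.

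**Figure D1:**
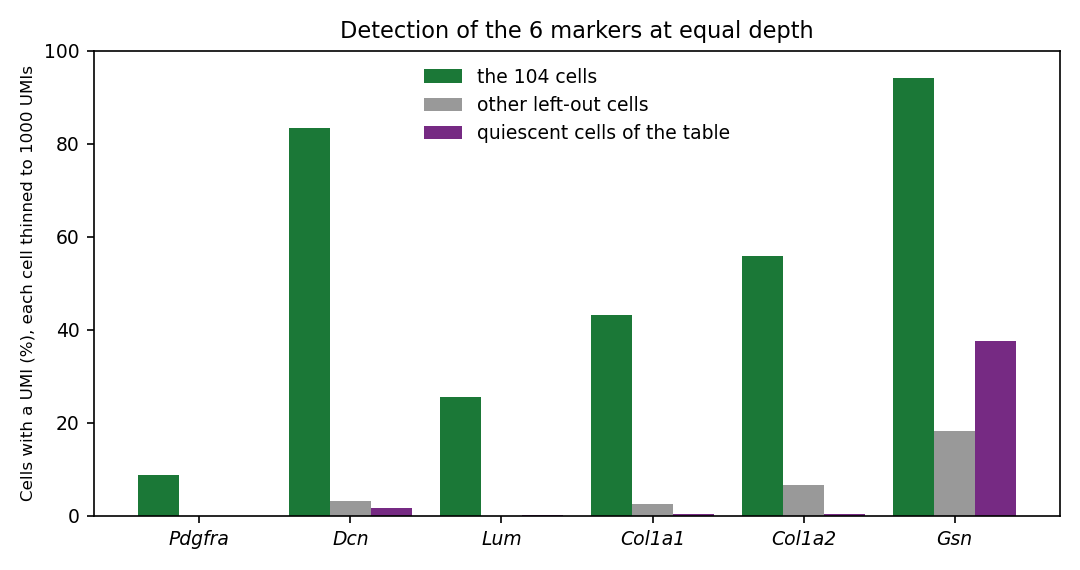
Share of cells (%) with at least 1 UMI of each marker after each cell was thinned to 1000 UMIs, in the 104 cells (102 with enough UMIs), the other left-out cells under both limits and the quiescent cells of the table. Dcn was left in 83.3% of the former against 1.57% of the table cells, whereas Gsn was also common in the table cells (37.5%).

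Levels are given as counts per 1000000 UMIs (CPM) of the cells' summed UMIs in a library. Dcn stood at 18552 and 16570 CPM in young LRCs, 20697 and 10029 in young nonLRCs, 18383 and 12424 in aged LRCs, and 14462 and 12326 in aged nonLRCs. All 8 libraries lay far above the 23.4 CPM of quiescent table cells, and the young and aged libraries overlapped. Gsn ranged from 2496 CPM in young nonLRCs b to 20270 CPM in young LRCs a, above the 547 CPM of quiescent table cells in every library. The rule admits cells with few marker UMIs. The 43 cells with exactly 3 of the markers had a median of 24 marker UMIs, the 15 cells with all 6 a median of 250.0, and the 81 left-out cells with 2 markers, just outside the rule, a median of 5.

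The label of FAPs was checked against markers of other cell types, and it did not hold for the cells as a whole. Of the 104 cells, 14 had UMIs in 3 or more of 7 tenocyte markers, 14 in 3 or more of 6 Schwann and glial markers, 8 in 3 or more of 7 mural markers, 4 in 3 or more of 9 MuSC markers and 2 in 3 or more of 7 endothelial markers. No cell had 3 immune, erythroid or myofiber markers, and 65 cells had 3 markers of none of these types. The cells are therefore called matrix-gene cells below. Hierarchical clustering of the 104 cells on 500 variable genes gave 5 groups, which are described by their leading genes, chosen after their values were seen. They are FAP-like (28 cells), tenocyte-like (16), mural-like (14), Schwann-like (12) and a group led by Sfrp5 (34). The other settings tried, 7 in all, gave adjusted Rand indices of 0.734 to 0.976 with these groups, where 1 would be an identical grouping. The highest was that of clustering without the 6 markers of the rule.

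The FAP-like group held the most UMIs of the markers. Pdgfra was detected in 20 of 28 cells, Lum in 25, Dcn, Gsn and Col1a2 in all 28, and the median cell held 247.5 marker UMIs. Ly6a was detected in 23 of these cells and Cd34, a surface sialomucin of progenitors, in 23. Their leading genes were Cxcl14, a chemokine (2500 CPM), Smoc2, a matricellular protein (3568 CPM), the ferritin receptor Scara5 (235 CPM), Col15a1, a collagen at basement membranes (447 CPM), and Dpep1, a membrane dipeptidase (636 CPM). FAPs and fibroblasts of other tissues are often split into cells with Pi16 and Dpp4 and cells with Cxcl14 and Smoc2. Here 14 of the 28 cells had 3 or more of 10 genes of the first kind and 25 had 3 or more of 10 genes of the second, and 12 had both. Cxcl14 was detected in 13 cells, Pi16 or Dpp4 in 10, and both in 3. Whether these genes split the cells was not decided at this depth.

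The tenocyte-like group was led by genes of tendon matrix. Fmod (fibromodulin) stood at 8912 CPM in these 16 cells and 8 CPM in the FAP-like cells, Thbs4 (thrombospondin 4) at 7690 against 38 CPM, and Tnmd (tenomodulin) at 2664 against 76 CPM. Comp and Kera, a cartilage and tendon glycoprotein and a proteoglycan, were detected in 7 and 9 cells. The tendon transcription factors Scx and Mkx were detected in 2 and 4 cells. Col1a1 stood at 8129 CPM and Sparc, a collagen-binding glycoprotein, at 14460 CPM, both highest among the 5 groups. Chodl, used here among the MuSC markers, was detected in 10 of the 16 cells at 947 CPM, while Pax7, which specifies MuSCs, had 1 UMI in 1 cell.

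The group led by Sfrp5, a secreted Wnt antagonist, was the largest. Of its 34 cells, 23 had exactly 3 of the markers of the rule and Pdgfra was detected in 1, and the median over all 34 cells was 44.5 marker UMIs. Sfrp5 was found in 26 of 34 cells (2994 CPM), against 1 of 28 FAP-like cells and none of the tenocyte-like or mural-like cells. The glucose transporter Slc2a1 was found in 24 cells, the netrin family gene Ntng1 in 18, the laminin receptor subunits Itga6 and Itgb4 in 20 and 15, and the alarmin Il33 in 19. The neuropeptide galanin (Gal) stood at 1411 CPM, against 136 to 221 CPM in the other groups, but was found in 14 cells (41.2%), beside 42.9% to 50% in the others. Igfbp6, an inhibitor of insulin-like growth factor 2, stood at 7803 CPM, highest of the groups. No list of markers fixed for this work matched the group, so it was given no cell type name. Sfrp5 and Itgb4 were also found in 9 and 8 of the 12 Schwann-like cells.

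The mural-like group was led by Rgs5, a pericyte regulator of G proteins, at 4174 CPM, and by the contractile genes Acta2 (3682 CPM), Myl9 (1917 CPM) and Myh11 (645 CPM). These cells also had the highest levels among the groups of Il6 (4309 CPM), Cxcl1 (14846 CPM) and Cxcl12 (1968 CPM), which encode a cytokine and chemokines. The Schwann-like group was led by genes of myelinating glia, among them Mbp, which encodes myelin basic protein (6828 CPM, found in all 12 cells). In these groups the markers of the rule were scarce: the median cell held 19 marker UMIs in the mural-like and 10 in the Schwann-like group, and 11 of 14 and 8 of 12 cells had exactly 3 of the markers. Whether those marker UMIs came from the cells or from free RNA in the droplets was not tested.

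**Figure D2:**
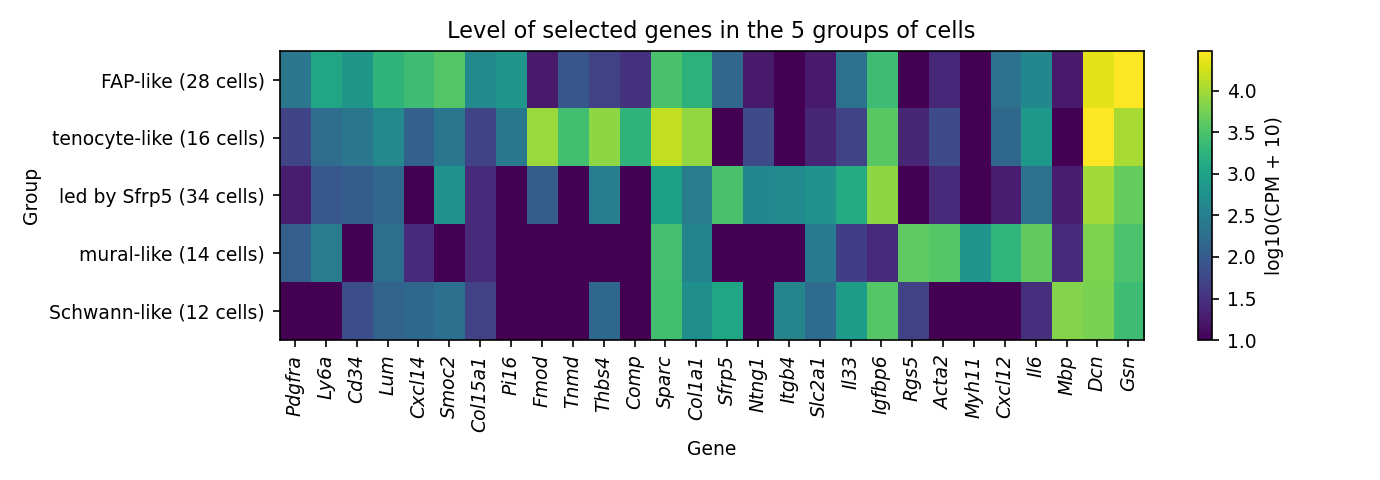
Level of 28 selected genes (columns) in the 5 groups (rows), as log10(CPM + 10) of the UMIs summed over the cells of each group. Pdgfra, Ly6a, Lum and Cxcl14 were highest in the FAP-like cells, Fmod and Thbs4 in the tenocyte-like cells, Sfrp5 in the group named for it, Rgs5 in the mural-like cells and Mbp in the Schwann-like cells, while Dcn and Gsn were present in all 5.

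Genes of the sort gate were measured in the same cells. Ly6a, which the gate selects against, was detected in 31 of the 104 cells (29.8%), against 0.249% of quiescent table cells and 16.8% of the other left-out cells. By level it was not highest in them, at 440 CPM in the quiescent matrix-gene cells and 528 CPM in the other left-out quiescent cells. Of these 31 cells, 23 were FAP-like. Pecam1 (CD31) was detected in 3 cells and Ptprc (CD45) in none, which allows a share of cells with a UMI of up to 2.88% and does not limit the share that expresses the gene. Vcam1, which the gate selects for, was found in 26.0% of the matrix-gene cells and in 66.8% of quiescent table cells, and in 11 of the 14 mural-like cells. Itga7, the other positive gene, was found in 20.2% of the cells and 13.9% of quiescent table cells, and in 12 of the 34 cells of the group led by Sfrp5. That difference in the share with Itga7 was not seen at equal depth. With cells thinned as for the markers of the rule, Itga7 was left in 4.90% of the matrix-gene cells and 4.87% of quiescent table cells. Vcam1 and Ly6a kept their direction, at 5.88% against 44.3% and 17.6% against 0.0763%. Transcripts do not give the protein on the surface, so the gate itself cannot be read from them.

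MuSC genes were low. The 9 MuSC markers summed to 435 CPM in the quiescent matrix-gene cells and 2564 CPM in quiescent table cells, and 8 of the 9 were at least 2-fold lower. The exception, Itga7, was higher, though by less than 2-fold. Myf5, Cdh15 and Calcr had no UMI in the 104 cells. Myod1 was detected in 4 cells (3.85%) against 33.8% of quiescent table cells, Pax7 in 1 cell (0.962%) against 15.1%, and Des in 20 cells (19.2%) against 74.2%. Of the immune markers, Ptprc, Cd52, Tyrobp, Fcer1g and Laptm5 had no UMI, and Lyz2 was detected in 3 cells.

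Matrix genes set the cells apart from the MuSCs of the table. Compared over the quiescent libraries, 7145 genes reached a summed level of 20 CPM in both kinds of cell together. Of these, 2368 (33.1%) were at least 2-fold higher and 624 (8.73%) at least 2-fold lower in the matrix-gene cells, with a median log2 ratio of 0.46 over all 7145 genes. These ratios are a description without a test, since the cells were chosen by matrix genes. All 15 collagens outside the rule were at least 2-fold higher (median log2 ratio 2.95), as were all 25 matrix glycoproteins (5.22), 20 of 23 matrix enzymes and their inhibitors (2.45) and 7 of 8 small leucine-rich proteoglycans (4.55). Col3a1 of fibrillar collagen stood at 1455 against 186 CPM, Col6a1 at 485 against 92.1 CPM, Sparc at 4504 against 438 CPM and the glycoprotein Thbs1 at 823 against 12.7 CPM. Serpinh1, the collagen chaperone, was already high in MuSCs and stood at 980.0 against 685 CPM.

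Among the genes found in at least 25% of the matrix-gene cells, 20 had the highest ratio to the table cells, taken over both time points. Thbs4, Smoc2, Mgp, Vit, Apod, Igfbp6, Aspn, Chrdl1, Meox2 and Col6a3 led this list, followed by Myoc, Mfap5, Col1a2, Cilp, Lama4, Sfrp5, Dcn, Ly6a, Cpxm2 and Lum. In quiescent cells alone the order differs, with Chrdl1 and Aspn (log2 ratios 10.80 and 10.75) above Apod and Igfbp6 (10.34 and 10.28). Some of the 20 genes were not particular to these cells among the left-out quiescent cells. Aspn stood at 497 against 275 CPM in the other left-out cells, Lama4 at 117 against 74.3 CPM and Meox2 at 114 against 77.1 CPM. Thbs4, by contrast, stood at 1510 against 2.79 CPM. Igfbp6 was found in 81 of the 104 cells with 1707 UMIs, and stood at 4186 CPM against 3.37 CPM in quiescent table cells. Apod, the lipid carrier apolipoprotein D, had 1191 UMIs in 66 cells and stood at 2960 against 2.28 CPM. Mgp, an inhibitor of matrix calcification, had 857 UMIs in 63 cells and stood at 2132 against 0.864 CPM. Vit and Chrdl1 had 63 and 62 UMIs in the 104 cells, against 1 and 2 UMIs in 10826 quiescent table cells. Several were carried by 1 group: 560 of the 607 UMIs of Thbs4 were in the tenocyte-like cells. Others were shared, and Igfbp6 was found in 27 of 28 FAP-like, 15 of 16 tenocyte-like and 32 of 34 cells of the group led by Sfrp5, but in 1 of 14 mural-like cells.

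Genes of secreted signals were also more often higher than in MuSCs. Of the growth factor ligands and antagonists, 22 of 30 compared genes were at least 2-fold higher and 1 lower, of the complement genes and inhibitors 9 of 10 were higher, and of the chemokines and cytokines 11 of 14, each against 33.1% of all genes. Igfbp7, a secreted binding protein, stood at 2433 against 48.3 CPM and was found in 90 cells. The chemokines Ccl11 and Ccl7 stood at 895 against 17.8 CPM and 987 against 137 CPM, but Cxcl1 was equally high in MuSCs (5644 against 5575 CPM). Chemokine levels varied widely between libraries: Ccl2 ranged from 191 CPM in young nonLRCs a to 22707 CPM in the 4 cells of young LRCs b. Of the receptors, 11 of 22 were at least 2-fold higher and 2 lower, with Fgfr1 lower at 162 against 409 CPM. Of the genes of fat formation, 5 of 7 compared were at least 2-fold higher and 0 at least 2-fold lower, with a median log2 ratio of 2.39. They were not particular to these cells among the left-out cells. The whole list summed to 3236 CPM, against 11111 CPM in the other left-out quiescent cells and 1971 CPM in quiescent table cells. Lpl (lipoprotein lipase) stood at 296 against 57.8 CPM and was found in 47 cells, and the transcription factor Klf5 stood at 72.1 against 13.7 CPM. Cebpb, a regulator of early adipocyte differentiation, was found in 85 cells and was also high in MuSCs (2291 against 1842 CPM). Fabp4, which is also an endothelial gene, was found in 7 cells, with 158 of its UMIs in mural-like cells. All 26 UMIs of Cd36 were also in mural-like cells. Pparg, the main regulator of adipocytes, was too low to be compared and had 2 UMIs, both in mural-like cells. The list summed to 6328 CPM in the mural-like group and 3144 CPM in the FAP-like group. The mural-like group also held the 2 cells with 3 or more endothelial markers.

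Heat shock and ribosome biogenesis genes lay lower. None of 13 heat shock genes was at least 2-fold higher and 8 were at least 2-fold lower than in quiescent table cells, against 8.73% of all genes. Their sum was 15160 CPM, against 38767 CPM in the table cells and 25092 CPM in the other left-out quiescent cells. Hspa8 stood at 3905 against 9711 CPM and Hspa1a at 1555 against 5319 CPM. Of 17 ribosome biogenesis genes, 8 were at least 2-fold lower and none higher, with nucleolin (Ncl) at 577 against 1508 CPM. The whole list summed to 2520 CPM, against 5414 CPM in the table cells. The other left-out quiescent cells were also low, at 2729 CPM. Immediate early genes, which dissociation of tissue can induce, showed no common direction, with 5 of 22 at least 2-fold higher and 3 lower. Fos stood at 1836 against 1841 CPM and Nr4a1 at 915 against 145 CPM. The metallothioneins Mt1 and Mt2 summed to 15737 against 16475 CPM, and 4365 CPM in the other left-out quiescent cells.

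The matrix-gene cells were found mainly in the quiescent libraries. They made up 0.922% ± 0.572 (SD, n = 8 libraries) of the cells under both limits in quiescent libraries and 0.0229% ± 0.0324 (n = 8) in activated libraries. Every quiescent library (0.266% to 1.75%) lay above every activated library (0% to 0.0759%). The mean difference over the 4 pairings of age and label class was -0.90 percentage points, lower after culture in 4 of 4 (exact permutation test within these strata, two-sided, p = 0.00154, the smallest p that 1296 arrangements allow; adjusted p = 0.00463 over the 3 comparisons of shares). In 5 activated libraries there was none, where a count of 0 among their 161 to 2094 cells allows a share of up to 0.143% to 1.86% (3 cells of the total), and the two-sided 95% Clopper-Pearson intervals drawn in the plot of shares by library reach 0.176% to 2.27%. These intervals and limits cover counting error only. Table cells had a median of 8316 UMIs when activated and 3072 when quiescent. Activated cells had also been sorted again after culture, and the part of that sort in the lower share was not tested. Among the left-out cells under both limits, the matrix-gene cells made up 21.1% ± 7.74 in quiescent and 1.83% ± 3.48 in activated libraries (n = 8 each, exact permutation test p = 0.00154, adjusted p = 0.00463), so the lower share also held relative to the other left-out cells.

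The 3 activated cells had 10504, 8802 and 9598 UMIs and clustered with the group led by Sfrp5, although none of them had a UMI of Sfrp5. They held 16, 44 and 5 UMIs of Dcn, and 7, 32 and 6 of Gsn, in young LRCs, young nonLRCs and aged nonLRCs in turn. Only the first had a Pdgfra UMI, and none had a UMI of Pax7, Des or Thbs4. The cell of young nonLRCs had 2 UMIs of Myod1, and that of aged nonLRCs had UMIs in 1 endothelial and 1 myofiber marker. Genes were not compared between the time points, since each of these libraries held 1 cell and libraries with fewer than 5 were left out of the gene tests.

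**Figure D3:**
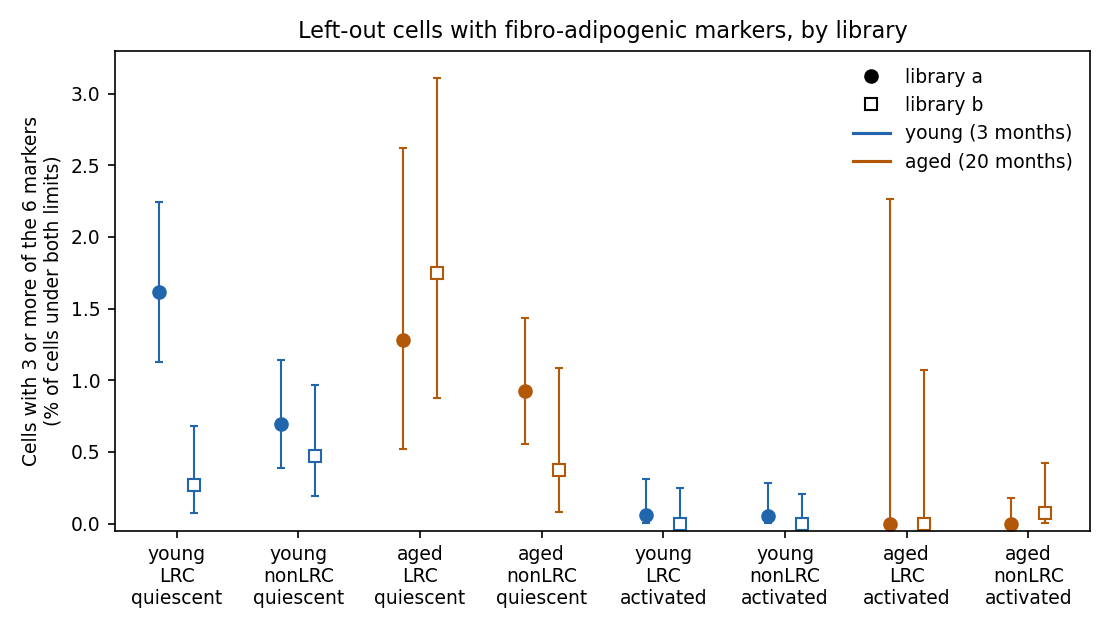
Share of the matrix-gene cells among cells under both limits (%) in each of the 16 libraries, with 95% exact (Clopper-Pearson) binomial intervals as bars, by condition. Quiescent libraries ranged from 0.266% to 1.75% and activated libraries from 0% to 0.0759%.

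No difference in the share by age or label class passed the test. In quiescent libraries it was 1.62% and 0.266% in young LRCs, 0.692% and 0.471% in young nonLRCs, 1.28% and 1.75% in aged LRCs, and 0.923% and 0.372% in aged nonLRCs. The 4 aged quiescent libraries averaged 1.08% ± 0.582 and the 4 young ones 0.762% ± 0.596, and the groups overlapped. Over both time points the difference of aged minus young was 0.16 percentage points (exact permutation test, two-sided, p = 0.500, adjusted p = 0.500, higher in 3 of 4 strata). Quiescent LRC libraries averaged 1.23% ± 0.672 and nonLRC libraries 0.615% ± 0.245 (n = 4 each). The difference of LRC minus nonLRC was 0.30 percentage points (exact permutation test, p = 0.208, adjusted p = 0.313, higher in 3 of 4 strata). The a and b libraries of a condition could differ more than the conditions, and in young LRCs they differed from 1.62% to 0.266% with binomial intervals of 1.13% to 2.24% and 0.0726% to 0.680%.

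The 4 quiescent a libraries stood apart from the b libraries in hemoglobin transcripts. These took 2095 to 6110 CPM of all UMIs in the a libraries and at most 0.529 CPM in the b libraries. The a libraries held 76 of the 101 quiescent matrix-gene cells, but the shares of cells under both limits overlapped (0.692% to 1.62% in a, 0.266% to 1.75% in b). Of the left-out cells under both limits, the matrix-gene cells were on average 16.7% in quiescent a and 25.5% in quiescent b libraries. Within the a libraries, the share was 0.0269% in activated and 1.13% in quiescent libraries, and within the b libraries 0.0190% and 0.715% (4 libraries each). The age difference in quiescent libraries was -0.05 percentage points within a and 0.69 within b, while that of label class was 0.64 and 0.59. Of the 28 FAP-like cells, 27 were in a libraries, as were all 12 Schwann-like cells, 10 of 16 tenocyte-like cells and 6 of 14 mural-like cells. The labels give each condition a library of mouse 1 and a library of mouse 2 and name no other batch, and which letter is which mouse cannot be told from the barcodes, so mouse and library cannot be told apart here.

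The makeup of the matrix-gene cells was counted by age. The group led by Sfrp5 was 17.1%, 25%, 6.67% and 28.6% of the matrix-gene cells of the 4 young quiescent libraries (10 of 61 cells), and 42.9%, 45.5%, 57.9% and 66.7% in the 4 aged ones (21 of 40 cells), without overlap. As a share of all cells under both limits, the ages overlapped, with 0.277%, 0.0665%, 0.0461% and 0.135% in the young and 0.549%, 0.796%, 0.534% and 0.248% in the aged libraries. The FAP-like cells were 23 of the 61 young and 5 of the 40 aged cells. They were 42.9%, 25%, 46.7% and 0% in the young and 14.3%, 0%, 21.1% and 0% in the aged libraries, which overlap. Mural-like cells were 8 of the 61 and 6 of the 40, and tenocyte-like cells 10 of the 61 and 6 of the 40. Schwann-like cells were 10 of the 61 young and 2 of the 40 aged cells, found in 3 of the 8 libraries, all of them a libraries. The groups were drawn from the expression of these same cells, so no test was run, and some libraries held as few as 3 cells.

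**Figure D4:**
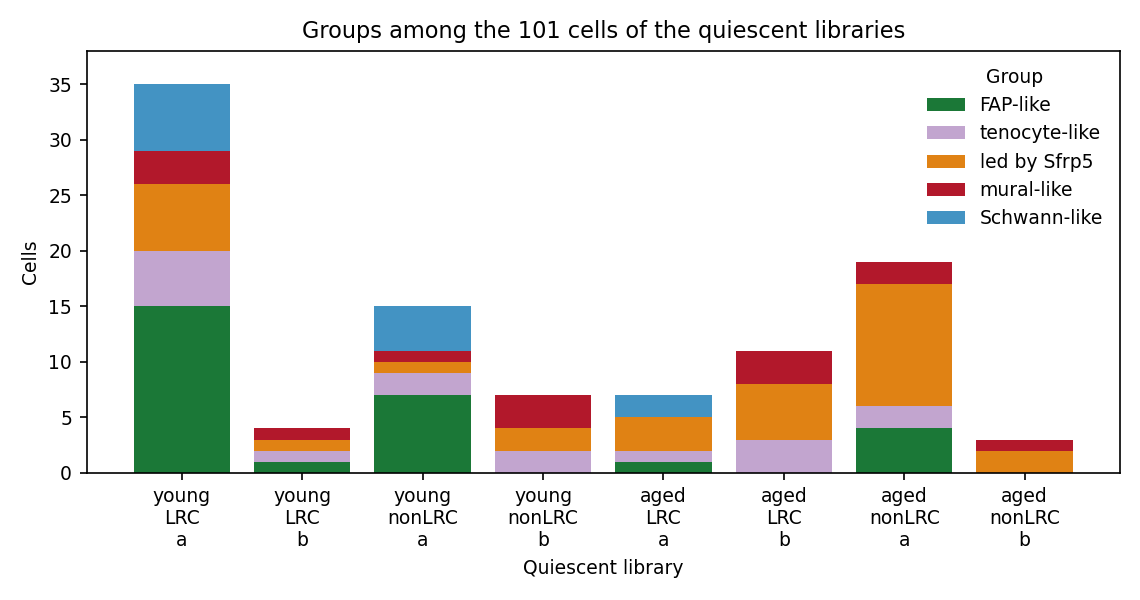
Number of matrix-gene cells of each group (stacked colours) in the 8 quiescent libraries. The group led by Sfrp5 made up 42.9% to 66.7% of the cells in aged libraries and 6.67% to 28.6% in young ones, and 27 of the 28 FAP-like cells were in a libraries.

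Genes were compared between ages over the 6 quiescent libraries with 5 or more of the cells, 3 per age (edgeR's quasi-likelihood test on UMIs summed per library, with label class in the model). Of 977 genes tested, 0 (0.0%) passed an adjusted p of 0.05, 39 had an unadjusted p under 0.05, and DESeq2, run without a filter on low counts on 11889 genes, called 2, Gm12840 and Sparc. The 977 genes include 5 markers of the rule, of which 2 (Col1a1 and Col1a2) are among the 39. With 3 libraries per age and 22833 to 150817 UMIs of the cells per library and a biological coefficient of variation of 0.458, many differences would go undetected, large ones included, so a gene that was not called may still differ. In bulk sums of this kind, fewer cells of a type and less RNA per cell cannot be told apart, which bears on every gene below because the counts of the groups differ by age.

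The lowest p was that of Gm12840, a predicted gene, at 862, 1410 and 794 CPM in aged LRCs a, aged nonLRCs a and aged LRCs b and at 66.3, 14.7 and 0 CPM in young LRCs a, young nonLRCs a and young nonLRCs b (log2 difference of aged minus young 4.63 ± 0.70, edgeR adjusted p = 0.339). Sparc followed at 5583, 7961 and 5212 CPM in the young and 1999, 1618 and 1484 CPM in the aged libraries, in the same order (-1.91 ± 0.32, edgeR adjusted p = 0.339). Arih1, which encodes a ubiquitin ligase, was 133, 147 and 131 CPM in the young and 431, 561 and 345 CPM in the aged libraries (1.69 ± 0.37, edgeR adjusted p = 0.461). Pi16 (peptidase inhibitor 16) was 398, 543 and 219 CPM in the young and 78.4, 13.1 and 0 CPM in the aged libraries (-4.04 ± 0.85, edgeR adjusted p = 0.461). Sfrp5 was 504, 397 and 307 CPM in the young and 2587, 2780 and 656 CPM in the aged libraries (2.25 ± 0.58, edgeR adjusted p = 0.700). None of these passed the threshold in edgeR's test of the 6 libraries, although the libraries of the 2 ages did not overlap. DESeq2 called Gm12840 (adjusted p = 0.00669) and Sparc (adjusted p = 0.000860). Under other settings edgeR also called some of them. With age alone in the model it called Gm12840 and Sparc (adjusted p = 0.0408 each), and without the filter on low counts Gm12840 (adjusted p = 2.23e-05) and Pi16 (adjusted p = 0.00382). With at least 4 markers required it called Sparc (adjusted p = 8.49e-09) and Pi16 (adjusted p = 0.000332), and with members that had 3 or more markers of another type left out Gm12840 (adjusted p = 0.0294) and Pi16 (adjusted p = 0.0116), each from 4 libraries. Over all 977 genes, 71 (7.27%) were higher and 52 (5.32%) lower in aged cells without overlap.

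Markers of the rule are given by age as a description, since their UMIs chose the cells. Col1a1 was 2261, 3320 and 3110 CPM in the young and 510, 1214 and 1035 CPM in the aged libraries (log2 difference -1.54), and Col1a2 differed by -1.47, both without overlap. Dcn differed by -0.23, with overlapping libraries, by 0.01 without young nonLRCs a and by -0.55 with at least 10 members per library. With at least 4 markers required, the difference was -0.75 for Col1a1, -0.94 for Col1a2 and 1.37 for Sfrp5. With members that had 3 or more markers of another type left out, it was -0.64 for Col1a1, -0.74 for Dcn, 3.70 for Sfrp5 and -6.19 for Pi16.

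As lists, the tested genes are described by their counts and medians. Of 8 collagens tested, 6 were lower in aged cells with a median log2 difference of -0.86, beside 51.6% lower and a median of -0.02 over all 977 genes. Of 12 heat shock genes, 11 were lower (median -0.44), with Hspa1a at 2347, 2277 and 1489 CPM in young and 274, 744 and 345 CPM in aged libraries (-2.15 ± 0.42, edgeR adjusted p = 0.461). Hspa1a differed by -1.42 without young LRCs a and was called by edgeR with at least 4 markers required (-2.86, adjusted p = 5.38e-07). Of 14 other FAP genes, 11 were lower (median -0.36). Among the markers of other cell types, none of which edgeR called in these 6 libraries with its filter, all 5 tenocyte markers tested were lower (median -0.83), as were all 3 Schwann and glial markers tested (-3.91), while 2 of 3 mural markers were higher (0.50). Mbp was called by edgeR without the filter on low counts (-4.39, adjusted p = 0.000155) and with at least 4 markers required (-8.94, adjusted p = 4.14e-09). It had UMIs in only 3 of the 6 libraries. The Schwann and glial markers summed to 0 CPM in aged nonLRCs a and aged LRCs b, the only aged libraries in the fit with at least 4 markers. These calls therefore cannot be told apart from which libraries held Schwann-like cells. The part of the markers of other cell types in the other lists was not tested. Of 7 glycolysis genes, 6 were higher (median 0.24). Matrix glycoproteins (6 of 13 higher) and immediate early genes (10 of 20 higher) had no common direction.

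**Figure D5:**
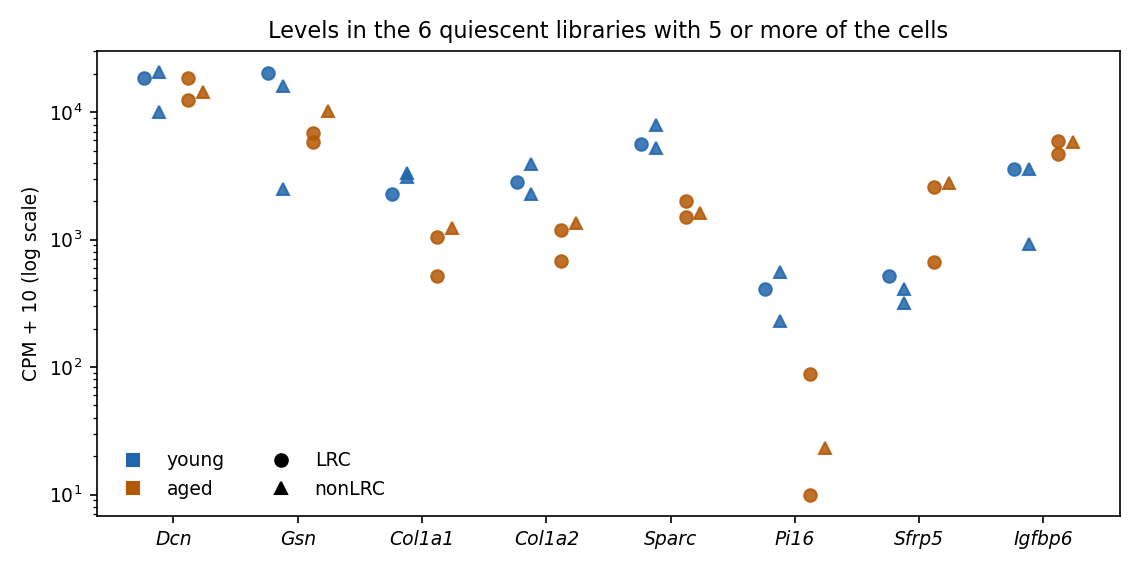
CPM + 10 (log axis) of 8 genes in the matrix-gene cells of the 6 quiescent libraries with 5 or more of them. Points are libraries, blue for young and brown for aged, with circles for LRCs and triangles for nonLRCs. Sparc, Col1a1, Col1a2 and Pi16 lay lower and Sfrp5 and Igfbp6 higher in all 3 aged libraries than in the young ones. Dcn, Gsn, Col1a1 and Col1a2 are markers of the rule and are shown as a description, and none of the other 4 passed the adjusted threshold in edgeR's test of these 6 libraries with label class in the model, although Sparc and Pi16 passed under other settings.

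Between LRC and nonLRC libraries, 0 of the same 977 genes (0.0%) passed in edgeR's test, 9 had an unadjusted p under 0.05, and DESeq2 called 0 of 11889. The lowest p was that of Cst3, the protease inhibitor cystatin C, at 7469 CPM on average in the 3 LRC and 2272 CPM in the 3 nonLRC libraries (log2 difference 1.47 ± 0.42, edgeR adjusted p = 1.000). With at least 4 markers required, which left 4 libraries, edgeR called Cst3 (1.52, adjusted p = 1.48e-06). All 10 chemokines and cytokines tested were lower in LRC libraries (median -1.02, beside 49.4% lower over all genes), but the libraries overlapped for each of them. This direction rests on the libraries kept. Young LRCs b, left out with 4 cells, had the highest sum of the list among quiescent libraries (57027 CPM). Young nonLRCs b, which were kept, had 49227 CPM, and aged nonLRCs b, also left out, had 14567 CPM. The direction was not uniform with at least 4 markers required. There edgeR called Il6 higher (1.84, adjusted p = 0.00799) and Cxcl2 lower (-2.43, adjusted p = 0.000147) in LRC libraries. Among the markers of other cell types, none of which edgeR called here, all 3 mural markers tested were lower in LRC libraries (median -0.56), while 4 of 5 tenocyte markers (1.13) and all 3 Schwann and glial markers (1.69) were higher, and their part in the chemokine levels was not tested. Over all 977 genes, 35 (3.58%) were higher and 27 (2.76%) lower in LRC libraries without overlap. Cxcl1 stood at 353, 4935 and 3547 CPM in LRC libraries and 5665, 3129 and 23562 CPM in nonLRC libraries, the last in young nonLRCs b (-1.52 ± 1.11, edgeR adjusted p = 1.000). It was called by edgeR with at least 4 markers required (-1.08, adjusted p = 0.0201). Of 20 immediate early genes, 16 were higher in LRC libraries with a median of 0.23.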

How the data were processed

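The authors aligned reads with STAR, assigned UMIs to cells with Cell Ranger and aggregated the libraries, and the submitters' processing notes name bcl2fastq, Seurat and mm10. Versions are not given in the sources used here, nor whether aggregation equalised depth. The authors deposited whole UMI counts per gene and cell and a cell table with counts of UMIs, the mitochondrial fraction, age, label class, time point and cluster. The authors had removed cells over 10% mitochondrial UMIs or 5000 genes and clusters without myogenic genes.

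Gm42418 and AY036118 (0.128% of UMIs) were removed here, leaving every other count as deposited. The library number in the barcode gave 16 libraries, of 162 to 2254 barcodes and 1428554 to 18709962 UMIs, each taken as 1 sample. Between the libraries of a condition, counts of the cells differed beyond sampling noise (chi-square per degree of freedom 4.48 and 5.81 in the pairs compared). No doublet caller was run beyond the authors' gene limit. Members and gene lists were chosen with earlier results of these data known.

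Shares were compared by exact permutation within strata of the other 2 factors. Sums per library were fitted with edgeR 4.0.16 (filterByExpr, TMM, quasi-likelihood, Benjamini-Hochberg, 3 residual degrees of freedom). For log2 differences, approximate standard errors follow ±. They are the absolute log2 difference divided by the square root of the F statistic. The tests were checked on simulated data. DESeq2 1.42.0 and other alternatives are listed in the closing section. Clustering used Ward linkage on 10 principal components. Genes named are the 6 markers, markers of other types, sort-gate genes, the 20 highest ratios and up to 4 genes per list. Leading genes of the groups, genes of lowest p and the others were chosen after their values were seen. R 4.3.3, Python 3.11.15 and scikit-learn 1.9.0 were used. Some genes of the Schwann and glial list are not reported here.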

Additional observations from a re-analysis of the deposited data

Results flagged for a closer look

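Cells with the markers also occurred outside the rule. Of the 21555 cells of the table, 17 had UMIs in 3 or more of the 6 markers, 16 of them quiescent. They held a median of 7 marker UMIs (3 to 44), and 12 of the 17 had 3 or more MuSC markers. Of the cells over a limit, 6 had 3 or more of the markers, all of them quiescent and over the mitochondrial limit, with a median of 16.5% mitochondrial UMIs and 12.5 marker UMIs. No library stood out as an outlier in the 10 sets of values checked, although chance alone is set to flag about 1 in 20.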

How the results depend on the processing

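The lower share in activated libraries held its direction and its side of the threshold in all alternatives run: at least 2 or 4 markers, thinning to 1000 UMIs, members with 3 MuSC markers or (added after seeing the data) 3 markers of another type left out, the left-out cells as denominator, and leaving out each library (-1.07 to -0.73 percentage points, adjusted p 0.00463 to 0.0278). The age difference in share turned negative with at least 4 markers (-0.042), after thinning (-0.0080) and, among left-out cells, at -1.70 percentage points, and lay between -0.012 (without young LRCs b) and 0.33 when 1 library was left out. That of label class kept its sign, 0.13 to 0.47 on leaving out 1 library, with an adjusted p of at least 0.0625. The cause of these shifts was not tested.

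Genes called by age were 0 in edgeR with RLE factors, with at least 3 or 10 members per library, without members with MuSC markers and on leaving out each library (0 to 0). They were 2 with DESeq2 (Gm12840 and Sparc), 2 with age alone (the same genes), 16 without a filter, 31 with at least 4 markers (Gsn, a marker of the rule, among them) and 2 with members of another type left out (Gm12840 and Pi16). The last 2 settings leave 4 libraries and 1 residual degree of freedom. Genes called by label class were 1 without a filter (Lyz2), 5 with at least 4 markers (Cst3, Il6, Cxcl1, Cxcl2 and Apod) and 0 in the others, leaving out libraries included (0 to 0). Thinning moved the share of cells with a UMI to 8.82% for Pdgfra, 25.5% for Lum, 43.1% for Col1a1, 55.9% for Col1a2 and 94.1% for Gsn.

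With 4 groups or 1000 variable genes the FAP-like and tenocyte-like cells formed 1 group of 44. With 20 components the mural-like cells fell in a group of 26, and with 6 groups the group led by Sfrp5 was split, its largest part being 19 cells. No paired analysis was possible because the barcodes do not name the mouse, and the letters are no known pairing. With the letter as a term in edgeR's model (added after seeing the data), 0 of 977 genes were called by age or by label class, and 61 and 22 had an unadjusted p under 0.05. The time point comparison of genes and its contrast with table cells were not run, since no activated library held 5 of the cells.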
